A study of Mus musculus with 15 samples.

Results

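A set of 10 genes of the matricellular group was followed through the aorta of Sham and angiotensin II infused mice: the thrombospondins Thbs1, Thbs2, Thbs3 and Thbs4, their relative Comp, and Postn, Tnc, Spp1, Sparc and Fn1. They were chosen by name from the 34714 genes of the deposited expression table; all 10 were in it. All 10 also passed the filter on low values, which kept the 12603 genes that reached 1 in 5 or more of the 15 libraries. Thbs4, the lowest of them, reached 1 in 7 libraries: 1 Sham, 4 AngII and 2 AngII+RvE1. It thus passed the filter only through the AngII group, where it was highest, and its p-values against AngII depend on that. Whole aorta RNA came from mice of WT genotype in 3 groups with 5 libraries each. Sham mice, the controls, carry a label of sham treatment and no agent. Mice of the AngII group were infused with angiotensin II, a peptide hormone that constricts arteries, at 750 ng/kg per minute to raise their blood pressure. Those of the AngII+RvE1 group had that infusion and intraperitoneal resolvin E1 (RvE1), a lipid mediator derived from eicosapentaenoic acid that helps end inflammation, at 2 µg/kg per day. No group received RvE1 without angiotensin II.

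Matricellular proteins are secreted into the extracellular matrix, where they bind collagen, growth factors and cell-surface receptors such as integrins, and tune how cells attach, move and signal more than they bear load. In arteries they are made by smooth muscle cells, fibroblasts, platelets and macrophages, and many of them are known to be induced by injury, mechanical stretch and transforming growth factor beta. Fibronectin, encoded by Fn1, is a structural glycoprotein that is assembled into fibrils and serves the others as a scaffold.

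The values are treated as FPKM, read fragments scaled to transcript length and library size, an assumed unit that would make levels comparable between genes. Read depth is unknown, so no counting error can be given, and errors are SDs over libraries. Whether each library is a separate animal is not in the labels, and the p-values cover only the spread between these samples. Summed values ran from 385846 to 514281 per library. On the first principal component, which held 41.1% of the variance, AngII libraries 3, 5 and 4 scored 78.9, 75.8 and 32.9, apart from the other 12 at -28.9 to 2.37. In the same 3 libraries the summed lymphocyte markers stood at 811, 1241 and 271 FPKM, against 4.66 to 63.7 in the other 12. Smooth muscle, fibroblast and endothelial markers, as aorta should have, were present in every library.

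By median FPKM over the 15 libraries the genes fell into a high and a low tier. Sparc, a collagen-binding protein of connective tissue, led with 616, followed by Postn with 179 and Fn1 with 159.8. Tnc followed with 11.9, Thbs3 with 11.6, Comp with 10.03, Thbs1 with 9.24 and Thbs2 with 5.13. Spp1 with 1.41 and Thbs4 with 0.778 closed the order. Sparc was the most abundant of the 10 in 15 of 15 libraries, and Fn1 and Tnc did not overlap. Several neighbours could not be ordered: Tnc exceeded Thbs3 in 8 of 15 libraries, and Comp exceeded Thbs1 in 7 of 15. Sparc, Postn and Fn1 together made up 93.7% to 96.4% of the summed FPKM of the 10 genes in 14 libraries. In AngII library 3 they made up 72.7%, and Spp1 stood at 300.4 FPKM there. The summed FPKM of the 10 genes spanned from 485 in Sham library 3 to 1770 in AngII+RvE1 library 4.

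**Figure D1:**
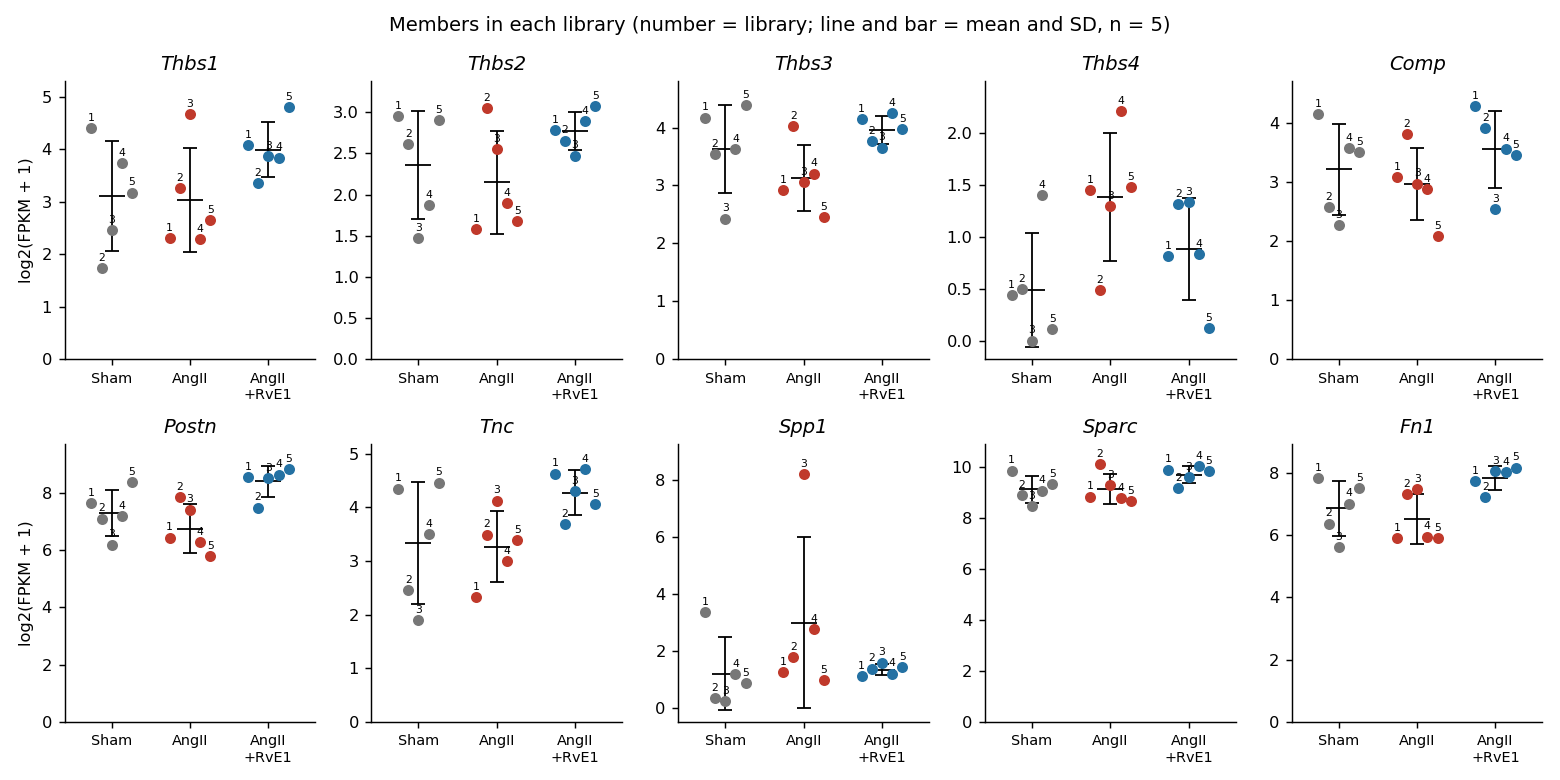
Expression of the 10 genes as log2(FPKM + 1) in each library, with the library number beside its point and each panel on its own vertical scale; the line and bar are the mean and SD of 5 libraries. Postn and Fn1 stand high in 4 of 5 AngII+RvE1 libraries, Sham library 3 is the lowest Sham point for 9 of the 10 genes, and Spp1 has 1 high AngII point, library 3.

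Libraries of 1 group differed widely in these genes. The median within-group SD of log2(FPKM + 1) over the 10 genes was 0.79 in Sham, 0.65 in AngII and 0.40 in AngII+RvE1, against 0.31, 0.29 and 0.21 over all genes tested. The same few libraries held most of the extreme values. Sham library 3 held the lowest Sham value of 9 genes and Sham library 1 the highest of 6. AngII library 2 held the highest AngII value of 5 genes and AngII library 5 the lowest of 6. AngII+RvE1 library 2 held the lowest value of its group for 5 genes, among them Postn, Fn1 and Sparc.

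In AngII+RvE1 against AngII, 1 of the 10 genes, Postn, was higher and 0 were lower, where 4.21% of the tested genes rose, 4.31% fell and 8.52% did either (limma on log2(FPKM + 1), two-sided, adjusted p under 0.05). At an unadjusted p under 0.05 the count was 4 (Postn, Fn1, Thbs3 and Tnc), where 29.0% of all genes passed. The estimate was above 0 for 8 of the 10 genes, with a median log2 difference of 0.73 against -0.11 over all genes; Thbs4 and Spp1 were below 0. In AngII against Sham, limma called 0 of the 10 genes in either direction, where 3.17% of all genes were called, 2.36% higher and 0.809% lower. There 1 gene, Thbs4, had an unadjusted p under 0.05, where 26.2% of all genes did, and the median log2 difference was -0.14 against 0.11 over all genes. The sign of that median was not stable: it ran from -0.43 without Sham library 3 to 0.088 without Sham library 1, and it was 0.64 with all 10 genes above 0 under the smooth muscle covariate (a term for the level of smooth muscle markers). In AngII+RvE1 against Sham, limma again called 0 of 10, where 0.0238% of all genes were called, 0.0159% higher and 0.00793% lower. Postn and Fn1 were the 2 genes at an unadjusted p under 0.05, where 6.69% of all genes passed. All 10 estimates were above 0 there, from 0.14 for Spp1 to 1.10 for Postn, with a median of 0.50 against 0.01 over all genes. The 3 comparisons share libraries in pairs, so their values are set side by side and not added together. For 7 of the 10 genes the group mean of log2(FPKM + 1) was highest in AngII+RvE1, then Sham, then AngII. Sparc, Thbs4 and Spp1 had other orders. No gene of the 10 had groups free of overlap in any comparison, where 5.87% of all genes stood higher and 5.23% lower without overlap in AngII+RvE1 against AngII. The shares were 2.92% and 0.778% in AngII against Sham and 0.825% and 0.262% in AngII+RvE1 against Sham.

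**Figure D2:**
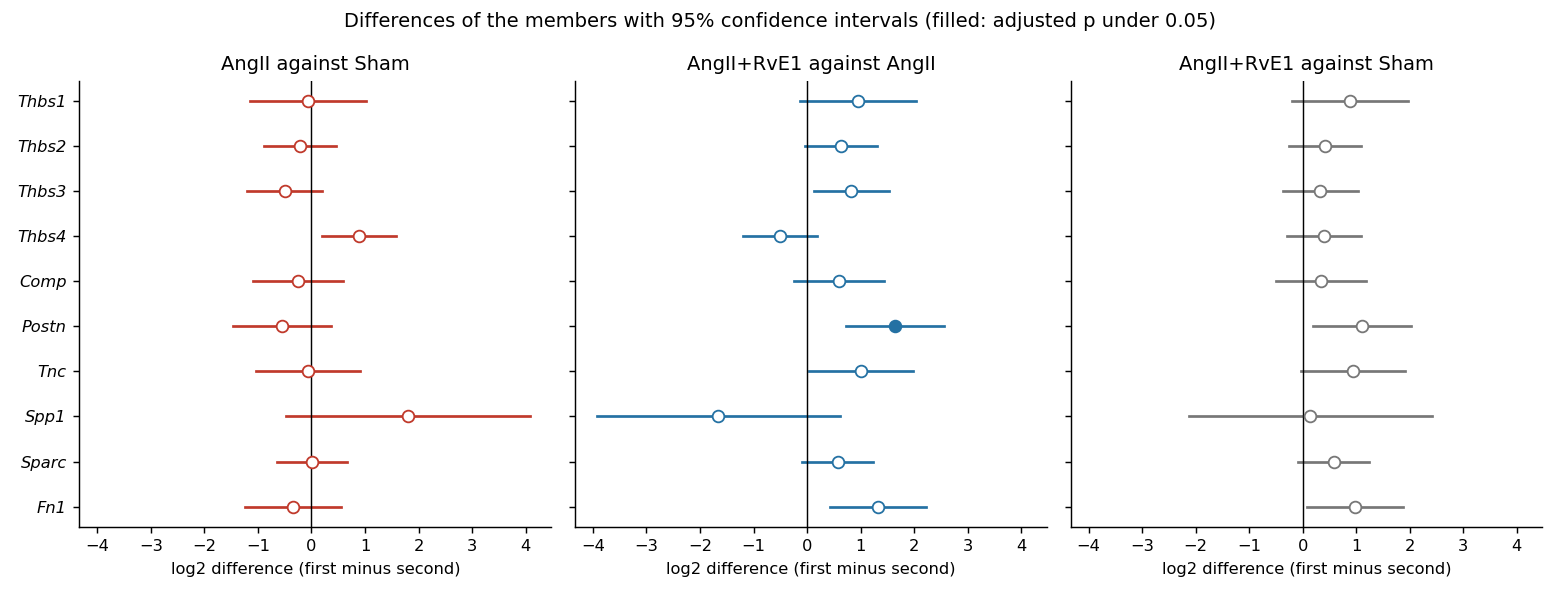
Log2 differences of the 10 genes in the 3 comparisons, first group minus second, with 95% confidence intervals from limma; a filled point has an adjusted p under 0.05. Postn in AngII+RvE1 against AngII, at 1.65, is the filled point, and Spp1 has the widest intervals.

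Postn encodes periostin, a secreted fasciclin-domain protein that supports collagen fibril assembly and binds integrins, and that is made by activated fibroblasts and smooth muscle cells. The gene lies on the plus strand at chr3:54359267-54391041 of GRCm38.p6, whole gene with exons and introns. In Sham libraries 1 to 5 Postn stood at 198, 137, 72.5, 144 and 334 FPKM. In AngII it stood at 86.0, 231, 171, 76.4 and 54.4 FPKM. In AngII+RvE1 it stood at 376, 179, 365, 399.6 and 453 FPKM. Libraries 1, 3, 4 and 5 of AngII+RvE1 lay above every AngII library and above every Sham library, while library 2 fell inside both ranges. Mean Postn was 177 ± 98.5 FPKM in Sham, 124 ± 74.3 in AngII and 354 ± 104 in AngII+RvE1 (SD, n = 5). Postn was 3.14-fold higher in AngII+RvE1 than in AngII on the FPKM + 1 scale, or 1.65 in log2 (SE 0.43, 95% confidence interval 0.73 to 2.56, limma adjusted p = 0.0340). Against Sham the difference of AngII+RvE1 was 1.10 (SE 0.43, adjusted p = 0.669), and that of AngII was -0.55 (SE 0.43, adjusted p = 0.442); neither passed. The Postn call depended on single libraries: the difference stayed between 1.41 and 1.92 with each library left out, and the adjusted p ran from 0.0131 to 0.103. It passed the threshold no longer without AngII library 4 (adjusted p = 0.0755) or 5 (0.103). The same held without AngII+RvE1 library 1 (0.0768), 3 (0.0659), 4 (0.0803) or 5 (0.0878).

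Postn is shown with the sequence around its starts because it was the called gene, and Spp1 because it had the other pattern. Each window runs from 250 bases before to 50 bases after a RefSeq start (GRCm38.p6), 5′ to 3′ in the direction of the gene, with capitals marking a TATAAA match. The windows are Postn start 1 at chr3:54359017-54359316, Postn start 2 at chr3:54360857-54361156 and Spp1 start 1 at chr5:104434861-104435160, all on the plus strand.
Postn start 1: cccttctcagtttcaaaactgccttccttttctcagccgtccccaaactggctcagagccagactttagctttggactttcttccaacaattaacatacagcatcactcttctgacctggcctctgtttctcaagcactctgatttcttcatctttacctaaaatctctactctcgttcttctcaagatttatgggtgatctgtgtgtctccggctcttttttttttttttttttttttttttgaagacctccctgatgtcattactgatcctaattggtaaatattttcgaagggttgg
Postn start 2: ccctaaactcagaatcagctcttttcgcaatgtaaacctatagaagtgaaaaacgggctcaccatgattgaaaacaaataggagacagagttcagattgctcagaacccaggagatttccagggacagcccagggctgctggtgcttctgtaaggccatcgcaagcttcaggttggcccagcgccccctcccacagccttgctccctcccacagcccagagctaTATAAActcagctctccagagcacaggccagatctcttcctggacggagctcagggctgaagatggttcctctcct
Spp1 start 1: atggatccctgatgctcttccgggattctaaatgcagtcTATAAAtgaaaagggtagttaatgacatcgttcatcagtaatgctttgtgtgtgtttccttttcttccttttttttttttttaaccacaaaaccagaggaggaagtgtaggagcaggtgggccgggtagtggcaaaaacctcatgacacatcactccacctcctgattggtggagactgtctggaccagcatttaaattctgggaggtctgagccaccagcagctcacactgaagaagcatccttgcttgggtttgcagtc
The TATAAA match of Postn start 2 lies at bases -26 to -21 from the start, and that of Spp1 start 1 at -211 to -206. RefSeq promoter windows were at hand for 7 of the 10 genes, 10 windows in all, and 5 of them hold TATAAA on either strand (Postn start 2, Spp1 start 1, Thbs2 and both overlapping Tnc windows), against 13.6% of 32851 windows of the genome. The TEAD motif CATTCC occurs in 1 of the 10, that of Thbs4, as 2 matches that overlap by a base, against 14.7% of all windows. The AP-1 motif TGANTCA (7.81% of all windows), the E-box CACGTG (7.15%), the SMAD motif GTCTAGAC (0.213%) and the CArG box (1.63%) have 0 matches in the 10 windows, searched on both strands. These are letter matches only.

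Fn1 encodes fibronectin, on the minus strand at chr1:71585473-71653280, and an antisense transcript, Apol7d, overlaps it. Whether counting used the strand is not stated. In Sham libraries 1 to 5 Fn1 stood at 227, 82.0, 48.4, 128 and 181 FPKM. In AngII it stood at 59.1, 159.8, 178, 61.2 and 59.1 FPKM, with libraries 2 and 3 well above the rest. In AngII+RvE1 it stood at 214, 149.7, 269, 259 and 288 FPKM, and all but library 2 lay above every AngII library. Fn1 averaged 103 ± 60.1 FPKM in AngII and 236 ± 55.3 in AngII+RvE1 (SD, n = 5), a log2 difference of 1.33 (SE 0.42, 95% confidence interval 0.44 to 2.23) that missed the threshold at a limma adjusted p of 0.0600. It passed when Sham library 1 (adjusted p = 0.0481), Sham library 3 (0.0330) or AngII library 2 (0.0306) was left out. Fn1 averaged 133 ± 72.2 FPKM in Sham; AngII differed from it by -0.35 (SE 0.42, adjusted p = 0.631) and AngII+RvE1 by 0.98 (SE 0.42, adjusted p = 0.689). Fn1 and Postn kept close to each other: Postn divided by Fn1 ranged from 0.874 to 1.85 over the 15 libraries, while Postn itself spanned 8.33-fold and Fn1 5.95-fold.

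Sparc, also called osteonectin, binds collagen and calcium and regulates fibril assembly; it lies on the minus strand at chr11:55394159-55420080. Sham libraries 1 to 5 held 919, 471, 347, 535 and 644 FPKM, and AngII libraries 454, 1101, 616, 436 and 398. AngII+RvE1 libraries held 946, 569, 776, 1036 and 899.9 FPKM. The highest Sparc value of all was that of AngII library 2, so every AngII+RvE1 library fell within the AngII range. The difference of AngII+RvE1 from AngII was 0.57 (SE 0.31, adjusted p = 0.235), with a 95% confidence interval from -0.09 to 1.23. AngII and Sham differed by 0.01 (SE 0.31, adjusted p = 0.987), a value that turned to -0.13 after rescaling by median ratios.

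Tnc encodes tenascin-C, a hexameric glycoprotein that loosens cell adhesion and that adult arteries make mainly on injury; it lies on the minus strand at chr4:63959785-64047015, and 8030451A03Rik overlaps it on the other strand. Sham libraries 1 to 5 held 19.4, 4.48, 2.71, 10.3 and 21.1 FPKM, and AngII libraries 4.01, 10.3, 16.4, 6.98 and 9.52. AngII+RvE1 libraries held 23.7, 11.9, 18.7, 25.1 and 15.6 FPKM. Here 3 of the 5 AngII+RvE1 libraries lay above every AngII library, and 2 above every Sham library. The difference of AngII+RvE1 from AngII was 1.01 (SE 0.46, adjusted p = 0.159), and that of AngII from Sham was -0.07 (SE 0.46, adjusted p = 0.945).

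The thrombospondins are multimeric calcium-binding glycoproteins. Thbs1 and Thbs2 form trimers that bind CD47 and CD36 and restrain blood vessel growth, and thrombospondin-1 also activates latent transforming growth factor beta. Thbs1 (chr2:118111876-118127133, plus strand, overlapped by the lincRNA Gm29233 on the other) stood at 20.2, 2.31, 4.51, 12.3 and 7.995 FPKM in Sham libraries 1 to 5 and at 3.94, 8.54, 24.4, 3.89 and 5.28 in AngII. In AngII+RvE1 it stood at 15.8, 9.24, 13.6, 13.3 and 26.8 FPKM. AngII library 3 was high for Thbs1, and with it the AngII range covered 4 of the 5 AngII+RvE1 libraries. The difference of AngII+RvE1 from AngII was 0.95 (SE 0.51, adjusted p = 0.225), and that of AngII from Sham was -0.07 (SE 0.51, adjusted p = 0.949).

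Thbs2 (chr17:14665500-14694262, minus strand) was lower and more even, with Sham libraries at 1.77 to 6.73 FPKM, AngII libraries at 1.99 to 7.27 and AngII+RvE1 libraries at 4.56 to 7.45. Its difference was 0.63 (SE 0.32, adjusted p = 0.201) for AngII+RvE1 against AngII and -0.21 (SE 0.32, adjusted p = 0.705) for AngII against Sham. Thbs1 exceeded Thbs2 in 14 of 15 libraries; the exception was Sham library 2, where the ratio was 0.451. Elsewhere the ratio ran up to 5.03, in AngII library 3.

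Thbs3, Thbs4 and Comp, also called thrombospondin-5, form pentamers and lack the antiangiogenic repeats of Thbs1 and Thbs2. Thbs3 (chr3:89215180-89226841, plus strand) overlaps Mtx1 on the other strand, so reads of the pair may be mixed if strand was not used. It stood at 17.03, 10.6, 4.37, 11.4 and 19.9 FPKM in Sham, 6.59, 15.2, 7.34, 8.22 and 4.45 in AngII, and 16.6, 12.6, 11.6, 18.1 and 14.7 in AngII+RvE1. Of the 5 AngII libraries, 4 lay below every AngII+RvE1 library, and AngII library 2 lay within their range. The difference was 0.83 (SE 0.33, adjusted p = 0.116). It passed without Sham library 3 (adjusted p = 0.0482) or AngII library 2 (1.05, adjusted p = 0.0380). Against Sham, Thbs3 differed by -0.50 (SE 0.33, adjusted p = 0.356) in AngII.

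Comp (chr8:70373548-70382066, plus strand) is the cartilage and tendon member, which smooth muscle cells also make. Sham libraries ranged from 3.82 to 16.9 FPKM, AngII libraries from 3.25 to 13.1 and AngII+RvE1 libraries from 4.82 to 18.6. The groups overlapped almost wholly, with a difference of 0.59 (SE 0.39, adjusted p = 0.339) between AngII+RvE1 and AngII and -0.25 (SE 0.39, adjusted p = 0.725) between AngII and Sham. Of 8 chondrocyte markers 1 passed the filter, Acan, which encodes the cartilage proteoglycan aggrecan. Summed over the 8, these markers lay at 0.998 to 2.66 FPKM for Sham libraries, 1.26 to 2.92 for AngII and 3.31 to 4.70 for AngII+RvE1. The AngII+RvE1 sums did not overlap the others. Among single genes, 5.87% stood higher without overlap in AngII+RvE1 than in AngII, and 0.825% than in Sham. Acan was higher in AngII+RvE1 than in AngII by 1.05 in log2 (limma, adjusted p under 0.05), where 4.21% of all genes were. It averaged 2.32 FPKM in AngII+RvE1 and 0.645 in AngII. Sox9, Hapln1, Matn3 and Col9a1 also had higher means in AngII+RvE1 than in AngII, each below 1 FPKM. Means of Col2a1 (0.0233 against 0.0259), Col9a2 (0.0680 against 0.122) and Cnmd (0.411 against 0.425) were lower in AngII+RvE1. Tendon markers had a summed FPKM of 11.01 to 38.6 for Sham libraries, 8.24 to 55.7 for AngII and 27.4 to 56.02 for AngII+RvE1. Of the 6, 2 passed the filter, Scx and Fmod. In AngII+RvE1 against AngII 1 of the 2 was called higher (limma, adjusted p under 0.05), where 4.21% of all genes were. Scx averaged 2.76 FPKM in AngII and 11.5 in AngII+RvE1, and Fmod 16.9 and 31.6. The part of cartilage, tendon or ligament in the Comp and Thbs4 values was not tested.

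Thbs4 (chr13:92751586-92794818, minus strand), a thrombospondin of tendon, muscle and stressed vessels and heart, had its highest group mean in AngII. In Sham libraries 1 to 5 it stood at 0.355, 0.408, 0, 1.63 and 0.0787 FPKM, and in AngII at 1.74, 0.402, 1.45, 3.63 and 1.78. In AngII+RvE1 it stood at 0.763, 1.48, 1.52, 0.778 and 0.0886 FPKM. AngII libraries 1, 4 and 5 were above every Sham library; libraries 2 and 3 were below Sham library 4. Thbs4 averaged 0.495 ± 0.660 FPKM in Sham and 1.80 ± 1.16 in AngII (SD, n = 5), a log2 difference of 0.90 with an SE of 0.32 that did not pass (limma adjusted p = 0.108). Without AngII library 2 the difference was 1.12 (SE 0.31) and the adjusted p 0.0306. Thbs4 passed the filter on low values only through the AngII libraries, so these p-values are not independent of the filter and carry no weight as support. Without AngII libraries 3, 4 and 5 it did not pass and was not tested. AngII+RvE1 averaged 0.926 ± 0.594 FPKM and differed from AngII by -0.50 (SE 0.32, adjusted p = 0.322). At such levels the added 1 pulls log2 differences toward 0. In AngII library 4, where Thbs4 was highest at 3.63 FPKM, skeletal muscle markers summed to 1251 FPKM, against 4.55 to 109 in the other 14 libraries. AngII libraries 1 and 5 held 1.74 and 1.78 FPKM of Thbs4 with skeletal muscle sums of 5.63 and 6.27.

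Spp1 encodes osteopontin, a phosphorylated glycoprotein made by activated macrophages and by smooth muscle cells that have left the contractile state. It lies on the plus strand at chr5:104435111-104441053 and overlaps Gm42793 on that strand. In Sham libraries 1 to 5 Spp1 stood at 9.38, 0.267, 0.180, 1.26 and 0.838 FPKM. In AngII it stood at 1.41, 2.42, 300.4, 5.77 and 0.962 FPKM, so 1 library held nearly all of the group's Spp1. In AngII+RvE1 the 5 libraries lay together at 1.17, 1.60, 2.02, 1.30 and 1.72 FPKM. Mean FPKM was 2.39 ± 3.93 in Sham, 62.2 ± 133 in AngII and 1.56 ± 0.340 in AngII+RvE1 (SD, n = 5), and in AngII the SD exceeded the mean. The difference of AngII from Sham was 1.80 (SE 1.07, adjusted p = 0.299), and that of AngII+RvE1 from AngII was -1.66 (SE 1.07, adjusted p = 0.321). Without AngII library 3 they were 0.49 (SE 0.53, adjusted p = 0.655) and -0.35 (adjusted p = 0.729). The library with the high Spp1 value also held the highest macrophage markers: their summed FPKM was 1039 there, 125 to 427 in the other AngII libraries, 93.3 to 137 in Sham and 121 to 163 in AngII+RvE1. The match rested on that library. AngII library 5, with the sum of 427, had the lowest AngII Spp1 value, 0.962 FPKM. Sham library 1, with a sum of 137, had Spp1 at 9.38 FPKM. None of the 10 macrophage markers was at 0 in any library, and 9 passed the filter. Platelet markers also had their highest sum, 418 FPKM, in AngII library 3, but Pf4 alone made up 364 FPKM of it. The mean log2(FPKM + 1) of the 7 tested platelet markers was not highest there, at 3.23. It was 3.97 in Sham library 1, 3.38 in AngII library 5 and 3.24 in AngII+RvE1 library 4. The part of macrophages or platelets in the Spp1 value was not tested.

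Likeness of profile was measured as the mean absolute difference, in SDs, between standardised log2(FPKM + 1) values over the 15 libraries. Of the 45 pairs among the 10 genes, the closest were Fn1 and Postn (0.28), Fn1 and Sparc (0.36) and Fn1 and Tnc (0.37). Thbs4 and Spp1 stood apart, the former at 0.97 or more from each other gene and as far as 1.42 from Thbs2. Among all other named genes, Postn was closest to Calu (0.15), a calcium-binding protein of the secretory pathway, then Anxa1 (0.20) and Nupr1 (0.21). Fn1 was closest to Col6a3 (0.18), Olfr1033 (0.19) and Col5a2 (0.21), of which Col6a3 and Col5a2 are collagen chains. Sparc was closest to Col1a2 (0.26), the type I collagen chain, followed by C1qtnf5 (0.27) and Gpr153 (0.28). Spp1 was closest to Alox5ap (0.28), the protein that activates 5-lipoxygenase in myeloid cells, Lgmn (0.28), a lysosomal protease, and Sdcbp (0.29). The median distance to all genes was 1.18 for Postn, 1.14 for Fn1, 1.17 for Sparc and 0.95 for Spp1. These are descriptions over libraries that share group and tissue composition.

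Contractile smooth muscle markers had a higher list mean in AngII+RvE1 than in AngII, as Postn and Fn1 did. Within groups the match was partial. The mean log2(FPKM + 1) of the list was 5.45 in AngII library 3 and 6.12 in AngII library 4. Yet Fn1 stood at 178 FPKM in library 3 and 61.2 in library 4, and Postn at 171 and 76.4. All 10 markers of that list passed the filter. Of these, 9 were higher in AngII+RvE1 than in AngII and 0 lower (limma, adjusted p under 0.05), where 4.21% and 4.31% of all genes were called. In AngII against Sham, where 2.36% of all genes rose and 0.809% fell, 0 markers were higher and 2 lower. Their summed FPKM spanned 1759 to 12242 over Sham libraries, 1206 to 3408 over AngII libraries and 5402 to 9724 over AngII+RvE1 libraries, with none at 0. The list mean of log2(FPKM + 1) reached 6.51 at most in AngII (lowest 5.16) and 7.05 at least in AngII+RvE1 (highest 7.77), so the level of this list and the RvE1 treatment cannot be told apart in these 2 groups. With the list mean as a covariate the Postn difference of AngII+RvE1 from AngII was 0.20 (SE 0.48, adjusted p = 0.852) and that of Fn1 was -0.04. The 2 Sham libraries at the ends of the list, library 3 at 5.62 and library 1 at 8.04, were also those where most of the 10 genes were lowest or highest. The adventitial fibroblast list, 10 of 10 tested, had 0 members called in AngII+RvE1 against AngII at an adjusted p under 0.05 (limma), where 8.52% of all genes were called. At an unadjusted p under 0.05 it had 1, where 29.0% of all genes passed, and its median difference was -0.04. Within groups, however, its mean log2(FPKM + 1) was also lowest in Sham library 3 (5.28) and highest in Sham library 1 (6.36). Among AngII libraries it was highest in library 2 (6.70) and lowest in library 5 (5.57), as was the smooth muscle list. Among AngII+RvE1 libraries it was lowest in library 3 (5.68), while the smooth muscle list was lowest in library 2. In whole tissue, fewer cells of a type and less RNA per cell cannot be told apart.

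Postn was also fitted without the 3 AngII libraries that stood apart, and with a term for lymphocyte markers. Without AngII libraries 3, 4 and 5 its difference was 1.26 (SE 0.54, adjusted p = 0.413), and with the lymphocyte list mean as a covariate it was 1.01 (SE 0.50, adjusted p = 0.571). The direction was kept in both. The call was lost in both, but there 0 of all genes tested were called higher, so the loss was not particular to Postn. Cardiac muscle markers were high in AngII library 2, at a sum of 2671 FPKM, against 12.01 to 529 in the other AngII libraries. That library held the highest AngII value of Postn, Sparc, Comp, Thbs2 and Thbs3. Other libraries did not follow the cardiac sum. AngII library 4, at 529 FPKM, had Postn at 76.4 and Fn1 at 61.2 FPKM. AngII library 3, at 12.7 FPKM, had 171 and 178. Sham library 3, the lowest Sham library for 9 of the 10 genes, had a cardiac sum of 256 FPKM. Sham libraries 2 and 4 had 156 and 39.2. Among AngII+RvE1 libraries the cardiac sum was 1428, 869.9, 357 and 811 FPKM for numbers 1, 3, 4 and 5 and 11.9 for number 2, where Postn, Fn1 and Sparc were lowest. All 8 cardiac markers had estimates above 0 in AngII+RvE1 against AngII, with a median of 1.48. At an adjusted p under 0.05 limma called 0 of them, where 8.52% of all genes were called. At an unadjusted p under 0.05 the count was also 0, where 29.0% of all genes passed. The part of cardiac tissue in the values of the 10 genes was not tested.

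**Figure D3:**
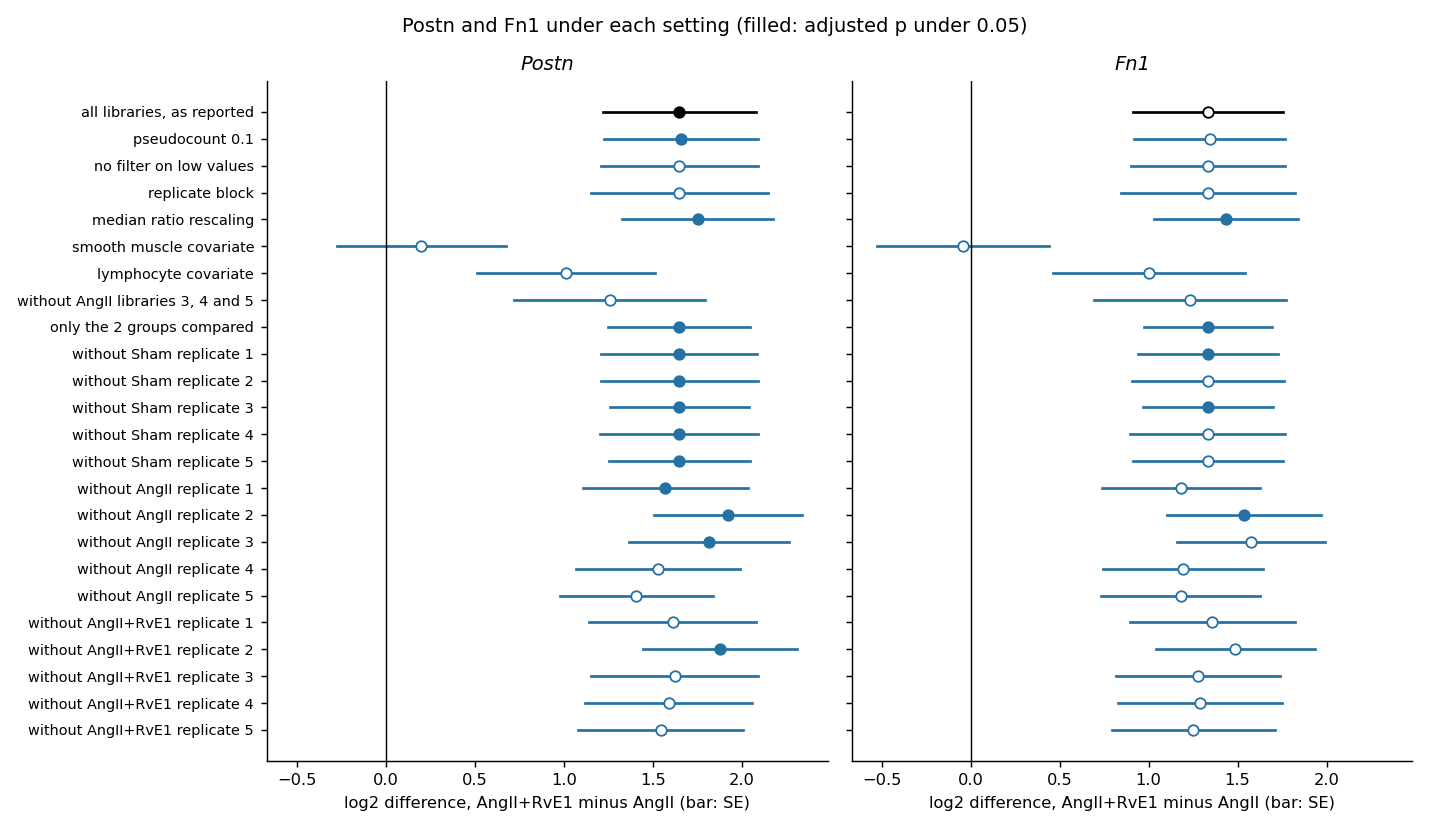
Log2 difference of Postn and Fn1, AngII+RvE1 minus AngII, under each setting, with SE bars; filled points have an adjusted p under 0.05 and the top point is the value reported. Postn lies above 0 in every setting shown, lowest with the smooth muscle covariate at 0.20, where Fn1 is at -0.04.

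**Figure D4:**
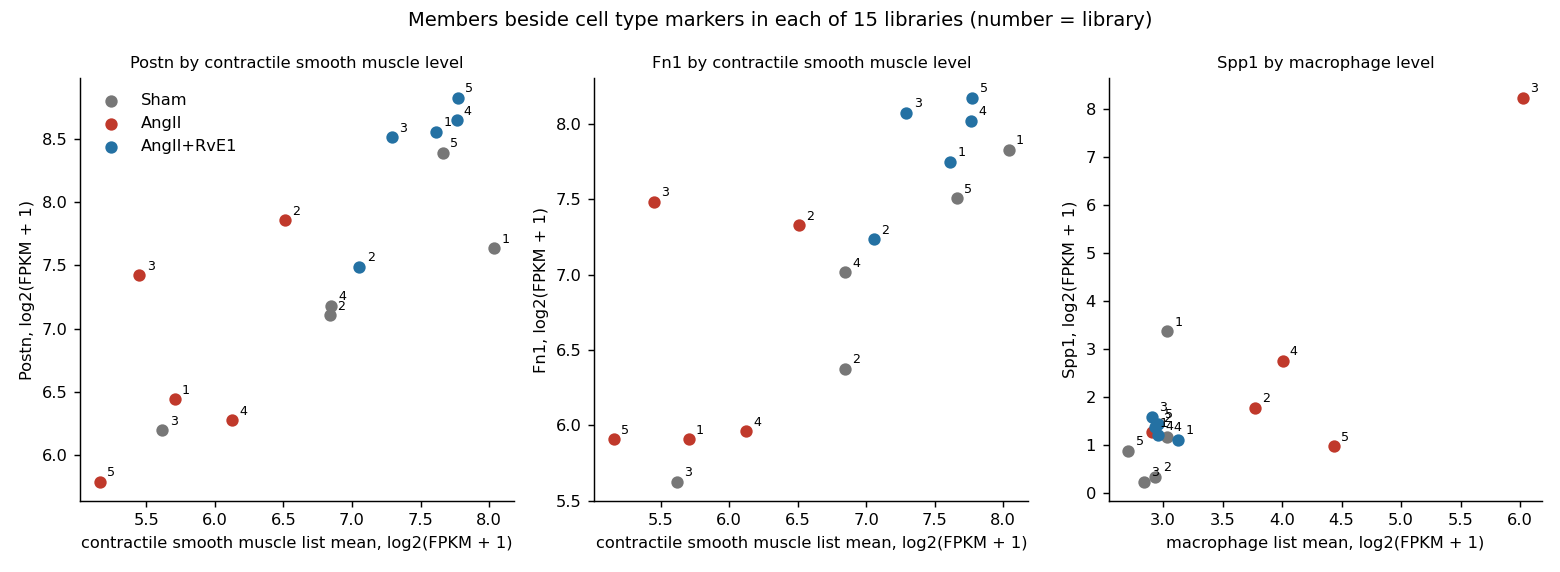
Postn and Fn1 against the mean log2(FPKM + 1) of 10 contractile smooth muscle markers, and Spp1 against that of the 9 tested macrophage markers, in each of 15 libraries with the library number beside its point. The AngII and AngII+RvE1 libraries do not overlap on the smooth muscle axis, and AngII library 3 is far from all others in the Spp1 panel.

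Other matricellular genes gave 4 of 13 tested members (21 listed) higher and 0 lower in AngII+RvE1 against AngII, where 4.21% and 4.31% of all genes were called, with a median log2 difference of 0.66 against -0.11 over all genes. Ccn3 and Ccn5 are CCN family proteins that restrain smooth muscle growth. Ccn3 stood at 53.8 ± 43.1 FPKM in AngII and 269 ± 117 in AngII+RvE1 (SD, n = 5), a difference of 2.43 (SE 0.51, limma adjusted p = 0.0182). Ccn5 stood at 25.3 ± 25.3 and 133 ± 64.5 FPKM, a difference of 2.59 (SE 0.56, adjusted p = 0.0190). Smoc1, a calcium-binding relative of Sparc, rose by 1.38 (SE 0.26, adjusted p = 0.0148), and Fstl1, a follistatin-like glycoprotein of the same family, rose by 1.53 (SE 0.38, adjusted p = 0.0293). Ccn2, or connective tissue growth factor, was at 127 ± 107 FPKM in AngII and 401 ± 188 in AngII+RvE1, a difference of 1.83 that missed the threshold (adjusted p = 0.0519); it was chosen after its values were seen. In AngII against Sham limma called 0 of the 13, where 3.17% of all genes were called, and 4 had an unadjusted p under 0.05, where 26.2% did. The counts were again 0 and 4 in AngII+RvE1 against Sham, where the shares of all genes were 0.0238% and 6.69%.

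Receptors that bind the 10 proteins gave 7 of 19 tested members (22 listed) higher and 0 lower in AngII+RvE1 against AngII, where 4.21% and 4.31% of all genes were called. The median was 0.24 against -0.11 over all genes. Itga8, the integrin chain that pairs with beta 1 to bind fibronectin, osteopontin and tenascin-C and is abundant in vascular smooth muscle, stood at 35.5 ± 20.9 FPKM in AngII and 147 ± 32.4 in AngII+RvE1. That difference was 2.15 (SE 0.44, adjusted p = 0.0177). Itga9, a receptor for tenascin-C and osteopontin, rose by 1.87 (SE 0.39, adjusted p = 0.0179), and Itgb5 by 1.54 (SE 0.36, adjusted p = 0.0237). Itgb5 and Itgb3 pair with alpha v to bind periostin and osteopontin. Itga3 rose by 1.39 (adjusted p = 0.0290), Itgb3 by 1.34 (adjusted p = 0.0312), and Cacna2d1, a calcium channel subunit that binds thrombospondins, by 1.04 (adjusted p = 0.0359). Itga5, the classical fibronectin receptor chain, rose by 1.55 (adjusted p = 0.0370) and was named after its values were seen. The thrombospondin receptors Cd36 and Cd47 had differences of -0.58 (adjusted p = 0.0860) and -0.46 (adjusted p = 0.0902), and they too were named after their values were seen. In AngII against Sham 1 of 19 receptors was lower, where 0.809% of all genes were: Itga8, with a difference of -1.73 (SE 0.44, adjusted p = 0.0458). That call was lost in 12 of the 15 fits with 1 library left out; it was kept without Sham library 3, AngII library 1 or AngII library 2, where the counts of lower receptors were 7, 1 and 3. It was also lost with no filter, the replicate block, either covariate and the 2 groups alone, and without AngII libraries 3, 4 and 5. Between AngII+RvE1 and Sham limma called 0 of 19, where 0.0238% of all genes were called, and 1 had an unadjusted p under 0.05, where 6.69% did. The counts of 4 and 7 higher in AngII+RvE1 than in AngII were 0 and 0 with the smooth muscle list as a covariate, with the lymphocyte list as a covariate, and without AngII libraries 3, 4 and 5. In each of these settings 0 of all genes tested were called higher, so the loss was not particular to these lists. With 1 library left out the counts of the lists ranged from 1 to 5 and from 0 to 8. The count of all genes called higher ran from 44 to 833 in these fits. Leaving out AngII library 5 gave 1 and 0, as did leaving out library 4 or 5 of AngII+RvE1; leaving out its library 1 gave 1 and 1. Without AngII library 4 they were 3 and 3, and without AngII+RvE1 library 3 they were 4 and 4.

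**Figure D5:**
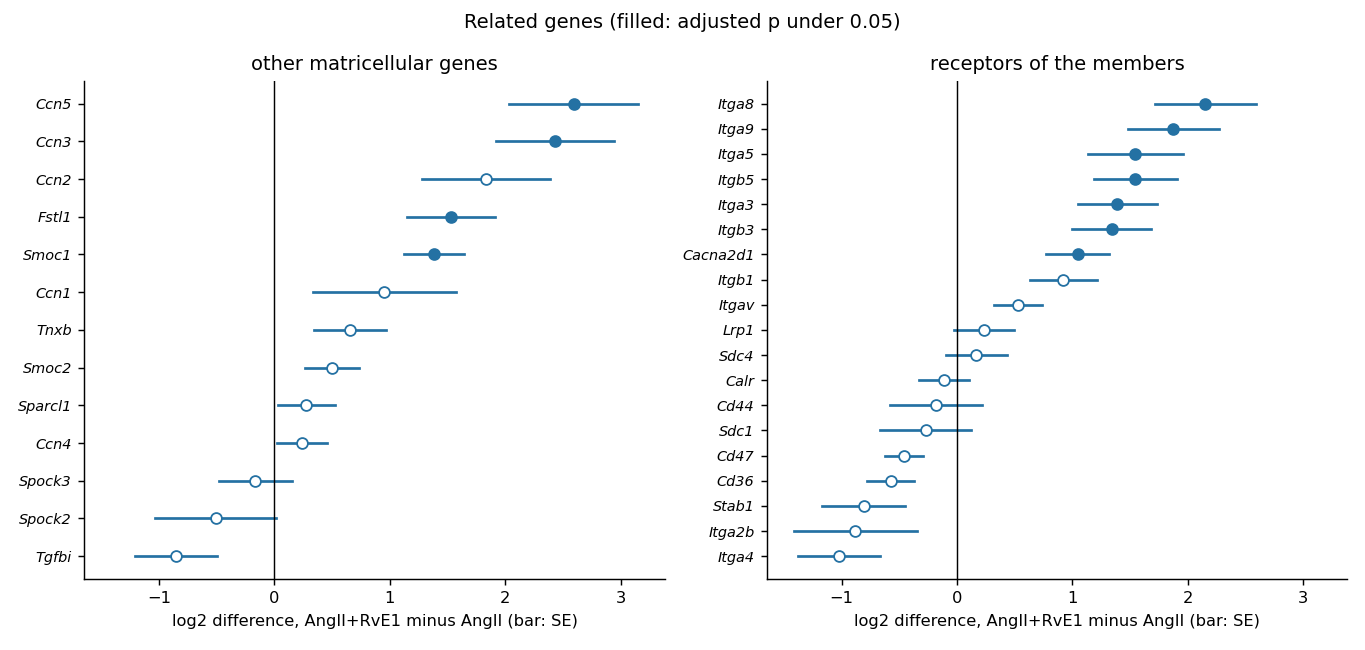
Log2 differences of AngII+RvE1 minus AngII for 13 other matricellular genes and 19 receptors of the 10 proteins, with SE bars; filled points have an adjusted p under 0.05. The 4 and 7 filled points all lie to the right of 0.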

How the data were processed

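RNA was sequenced from 15 mouse aorta libraries prepared with a SMARTER mRNA kit, per the labels' protocols. The authors deposited 1 table of normalised values per gene symbol and library, treated here as FPKM since the file names no unit. Scaling to gene length was assumed, since values have decimals, unequal sums and no whole reads. Were they TPM, libraries would differ by a scale factor that these values do not show. The build was mm10, per the submitters' processing notes. Aligner, quantifier, annotation and strand setting: not given in the sources used here. Loci and promoters are from RefSeq GRCm38.p6, and overlaps with other genes from GENCODE.

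Values were taken as log2(FPKM + 1), and 12603 of 34714 genes, those reaching 1 in 5 libraries or more, were kept. A limma-trend model (limma 3.58.1, R 4.3.3) with group means of all 15 libraries was tested two-sided in 3 contrasts with Benjamini-Hochberg adjustment over all genes, at 0.05. The added 1 pulls differences of low genes toward 0. The procedure was tested on simulated data. Replicate numbers were not taken to pair the libraries, though the check made cannot exclude a pairing. No 2 libraries were identical; correlations within groups ran from 0.868 to 0.983.

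All 10 genes are named. From the lists of other matricellular genes and receptors, called genes are named, up to 6 per list and comparison by smallest adjusted p; similar profiles are the 3 nearest named genes. The 10 genes, the lists and the alternatives were chosen with earlier results of these data known. Of the 13 marker lists, those for lymphocytes, macrophages, platelets, smooth muscle, fibroblasts, chondrocytes, tendon, skeletal and cardiac muscle stand beside the results. In AngII+RvE1 against AngII the others gave these median log2 differences: endothelium -0.36, adipocyte -0.54, mesothelium -0.08 and lymphatic endothelium -1.38. Called lower (limma, adjusted p under 0.05) were 1 of 8, 2 of 8, 0 of 2 and 2 of 4 tested markers, in that order. In each of these lists 0 were called higher. Of all genes 4.31% were lower and 4.21% higher.

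Alternatives were an added value of 0.1, no filter, a replicate block, median ratio rescaling, a smooth muscle or lymphocyte covariate, the omission of AngII libraries 3, 4 and 5, a fit of the 2 groups compared, and each library left out.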

Additional observations from a re-analysis of the deposited data

Results flagged for a closer look

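Of 30 groups of 5 values, 10 genes in 3 groups, 2 held a library far from the others by Dixon's criterion at 95%; chance flags about 1 in 20 groups. In AngII+RvE1, Postn in library 2 was low at 179 FPKM, while the other 4 stood at 365 to 453; the gap to the nearest took up 0.767 of the group's range on the log2 scale. In AngII, Spp1 in library 3 was high at 300.4 FPKM, while the other 4 stood at 0.962 to 5.77; the gap took up 0.754 of the range.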

How the results depend on the processing

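Depth is unknown, so it limits no value by a count. The 5 libraries per group and the spread within all 3 groups set the precision. That spread was widest in Sham, with a median SD of 0.79 over the 10 genes, against 0.65 in AngII and 0.40 in AngII+RvE1. The call of Postn in AngII+RvE1 against AngII was kept with an added value of 0.1 (1 of the 10 genes called). It was lost, leaving 0 genes, with no filter (adjusted p = 0.0705), the replicate block (0.0756), either covariate and without AngII libraries 3, 4 and 5. With rescaling (Fn1 adjusted p = 0.0376) and with the 2 groups alone (0.0390) the count was 2, Postn and Fn1. With 1 library left out it ranged from 0 to 3; in AngII against Sham, from 0 to 1. The count of 0 lower was the same under every alternative.

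Replicate numbers were not taken to pair the libraries. Deviations of same-numbered libraries correlated at -0.41 to 0.52, and those of AngII+RvE1 with Sham at 0.024 to 0.52. Differently numbered libraries were not set beside these, so the check cannot exclude a pairing. The replicate block changed the counts of all genes called higher and lower from 298 and 102 to 72 and 37 in AngII against Sham, from 531 and 543 to 269 and 164 in AngII+RvE1 against AngII, and from 2 and 1 to 1 and 0 in AngII+RvE1 against Sham. In that order of comparisons the counts were 122 and 29, 213 and 192, and 1 and 0 with no filter. With the smooth muscle covariate they were 66 and 43, 0 and 1, and 1 and 0, and with the lymphocyte covariate 44 and 12, 0 and 5, and 4 and 1. Without AngII libraries 3, 4 and 5 they were 18 and 2, 0 and 1, and 4 and 1. With the 2 groups alone they were 30 and 7, 851 and 489, and 1 and 0, and with rescaling 259 and 282, 819 and 479, and 2 and 1. With 1 library left out they ran from 57 to 1356 and 16 to 558, from 44 to 833 and 51 to 1292, and from 1 to 4 and 0 to 4.

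Signs turned with the smooth muscle covariate and in other settings. With that covariate, in AngII against Sham, Thbs1 was 0.55, Thbs2 0.57, Thbs3 0.50, Comp 0.66, Postn 0.48, Tnc 0.91 and Fn1 0.62. In AngII+RvE1 against AngII, Thbs2 was -0.48, Thbs3 -0.58, Comp -0.69, Tnc -0.37, Sparc -0.50 and Fn1 -0.044, and the median of the 10 genes -0.42. In AngII+RvE1 against Sham, Thbs3 was -0.081, Comp -0.032 and Spp1 -0.063. With the lymphocyte covariate Thbs2 was 0.034 and Comp 0.25 in AngII against Sham, and Comp -0.065 in AngII+RvE1 against AngII. Without AngII libraries 3, 4 and 5, Comp was 0.24 in AngII against Sham, and rescaling gave Sparc -0.13 there. With 1 library left out, Thbs1 ran from -0.48 to 0.26, Tnc from -0.43 to 0.22 and Sparc from -0.24 to 0.19 in AngII against Sham, and Spp1 from -0.10 to 0.69 in AngII+RvE1 against Sham. None of these turned values had passed the test. The cause was not tested.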
